A study of Mus musculus with 4 samples.

Results

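Gdf9, Bmp15, Oosp1, Oosp2, Oosp3, Omt2a and Omt2b are 7 genes of the mouse oocyte, chosen by symbol as its growth factors and the small oocyte proteins named for secretion or for maturation. All 7 were found among the 20171 genes of the expression table. Their transcripts made up 160 of the 68012 isoforms recorded in sequencing runs 1 to 3 and 153 of the 49271 isoforms of run 4.

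GDF9 and BMP15 are members of the transforming growth factor beta superfamily that the growing oocyte secretes onto the granulosa and cumulus cells around it, and both are needed for normal follicle growth and ovulation. Oosp1, Oosp2 and Oosp3 encode small proteins with a signal peptide, related to PLAC1 of the placenta. Omt2a and Omt2b are a pair of genes of closely similar sequence whose names stand for oocyte maturation, alpha and beta, and whose proteins are less well known. The mature oocyte no longer transcribes its genes, and transcripts stored in it are removed in waves after fertilization, the last of them as the embryo's own genome is switched on in the 2-cell embryo.

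The data were full-length cDNA counts from single blastomeres, each reverse transcribed with a barcoded 10x gel bead, pooled at about 60 cells per run and read on PacBio long-read chips, with 1 experimental replicate per chip. Eggs and embryos came from C57BL/6J females of 6 to 8 weeks, which were mated with DBA/2NCrl males except for the donors of oocytes; the sample labels give the strain as DBA/2J x C57BL/6J. Metaphase II (MII) oocytes were taken 20 h after human chorionic gonadotropin (hCG), fertilized eggs (zygotes) at 22 to 24 h, early 2-cell (E2C) embryos at 30 to 32 h, late 2-cell (L2C) embryos at 46 to 48 h, 4-cell embryos at 54 to 56 h, 8-cell embryos at 68 to 70 h, 16-cell and 32-cell embryos at 78 to 80 h and early blastocysts at 88 to 90 h. Mouse embryonic stem cells (mESC) of the male E14 Tg2A line were grown without feeder cells, and in run 4 intact oocytes were set beside oocytes that had been divided into 1/2 or 1/4 before amplification. All eggs and embryos thus came from hormone-primed females of 1 cross, and all mESC from 1 cell line.

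The replicate was the embryo, with its sequenced cells averaged. There were 43 replicates: 10 oocytes, 9 zygotes, 5 embryos at E2C, 6 at L2C, 5 at the 4-cell and 4 each at the 8-cell and 16-cell stage. The 22 cells of 32-cell embryos, the 13 blastocyst cells and the 5 mESC named no embryo and entered no test. P-values therefore measure the spread between embryos of runs 1 to 3. Of 161 cells, oocytes held 166731 to 255836 unique molecular identifiers (UMIs) and zygotes 194072 to 389775, against 4985 to 105534 in the embryonic stages and mESC, so that 1 UMI was worth more in a late cell. Levels are copies per 100,000 UMIs of a cell. A UMI counts 1 cDNA molecule whatever its length, so levels were set side by side between genes without division by length. A level is a share of a cell's UMIs: total RNA was not measured, and a fall in a level cannot be told apart from a gain of other RNA.

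Markers of oocytes and of mESC were present in those cells. All 6 oocyte markers were above 0 in oocytes, summing to 1285 to 2089 copies per 100,000, and the linker histone gene H1foo alone stood at 1593 ± 214 (SD, n = 10). Of 12 cumulus and granulosa markers, 9 were in the table and 3 of these were at 0 in every oocyte. The sum of the list was 4.42 to 9.81 copies per 100,000, of which Cyp19a1, the aromatase gene of granulosa cells, made up 7.45 ± 1.91 (SD, n = 10). In mESC the sum of Nanog, Sox2, Pou5f1 and Klf4 was 71.9 to 92.8 copies per 100,000, while the oocyte markers summed to 32.8 to 79.9. The 5 late 2-cell markers did not set L2C embryos apart as a list. Their median log2 change was 1.08 from zygotes to E2C embryos and -0.81 from E2C to L2C embryos. At the second of these steps Tdpoz4 changed by 1.73 and Zscan4c by -1.41.

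The 7 genes lie at 4 places in the genome (build mm10, GENCODE vM21 annotation). Gdf9 is on chromosome 11 at 53431023 to 53437904 and Bmp15 on chromosome X at 6314107 to 6320721. Oosp2, Oosp1 and Oosp3 follow each other on chromosome 19 between 11647279 and 11711874, with 6900 and 5904 bases between them. Omt2a and Omt2b face away from each other on chromosome 9, at 78311972 to 78314796 and at 78327589 to 78329620, 12792 bases apart. Since reads were primed from the poly(A) tail, the last bases of each transcript are where counting began. The 30 bases around the poly(A) signal AATAAA, in capitals, are shown for the leading isoform of each gene and for the second isoform of Oosp1. They lie in the last exon, past the stop codon, and are given in the sense of the transcript from GENCODE vM21.
Gdf9, chr11:53437870-53437899, plus strand: atgtgacggaagAATAAActgttgatggca
Bmp15, chrX:6314117-6314146, minus strand: ttaatcttaaagAATAAAttttcatttatg
Oosp1 isoform PB.38237.8, chr19:11667535-11667564, minus strand: atctgattaaagAATAAAaatttcccatta
Oosp1 isoform PB.38237.143, chr19:11667619-11667648, minus strand: ttttcaattttaAATAAAgtaaaatgcgac
Oosp2, chr19:11647288-11647317, minus strand: atacatcaatgaAATAAAggctcagcttat
Oosp3, chr19:11711828-11711857, plus strand: ccacaacctataAATAAAacattttattgt
Omt2a, chr9:78312006-78312035, minus strand, and Omt2b, chr9:78329565-78329594, plus strand: ggttttatAATAAATAAAagtttcaggcag

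Omt2a and Omt2b had the same 30 bases there, with overlapping copies of the signal. Over 708 aligned bases of the transcripts Omt2a-203 and Omt2b-201, 642 (90.7%) were identical, and the longest identical run was 260 bases. Short fragments of these 2 genes could therefore be exchanged, and although reads were full-length, their counts are less certain as separate values than those of the other 5. Among the 3 Oosp genes, and between Gdf9 and Bmp15, no aligned stretch was longer than 12 bases. The motif AATAAA was found in the last 100 bases of 42.5% of 58737 annotated coding transcripts, so that its presence does not set these genes apart.

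In oocytes the 7 genes together took 4.45% ± 0.275 (SD, n = 10) of all UMIs. In runs 1 to 3 Oosp1 was the 2nd most abundant gene of the MII oocyte, Omt2b the 7th and Omt2a the 10th. Gdf9 was the 16th and Oosp3 the 19th, while Bmp15 ranked 368th and Oosp2 540th. The order of the 7 was different in the intact oocytes of run 4, as given below. The mean share of the 7 was 4.04% in zygotes and 2.58% in E2C embryos. It was 0.808% at the L2C stage and 0.336%, 0.177% and 0.335% at the 4-cell, 8-cell and 16-cell stages. In L2C embryos Omt2a and Omt2b still ranked 12th and 14th, Oosp1 387th, Oosp3 1252nd and Gdf9 1375th. Gdf9 was the first to be called lower, from oocytes to zygotes, followed by Oosp1 from zygotes to E2C embryos and by Bmp15, Oosp2, Oosp3, Omt2a and Omt2b from E2C to L2C embryos. The first of these calls was lost with the sequencing run as a block, without array weights, without the filter on low values, by edgeR and by DESeq2, and Gdf9 and Oosp1 were then first called at the same step with the run block.

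**Figure D1:**
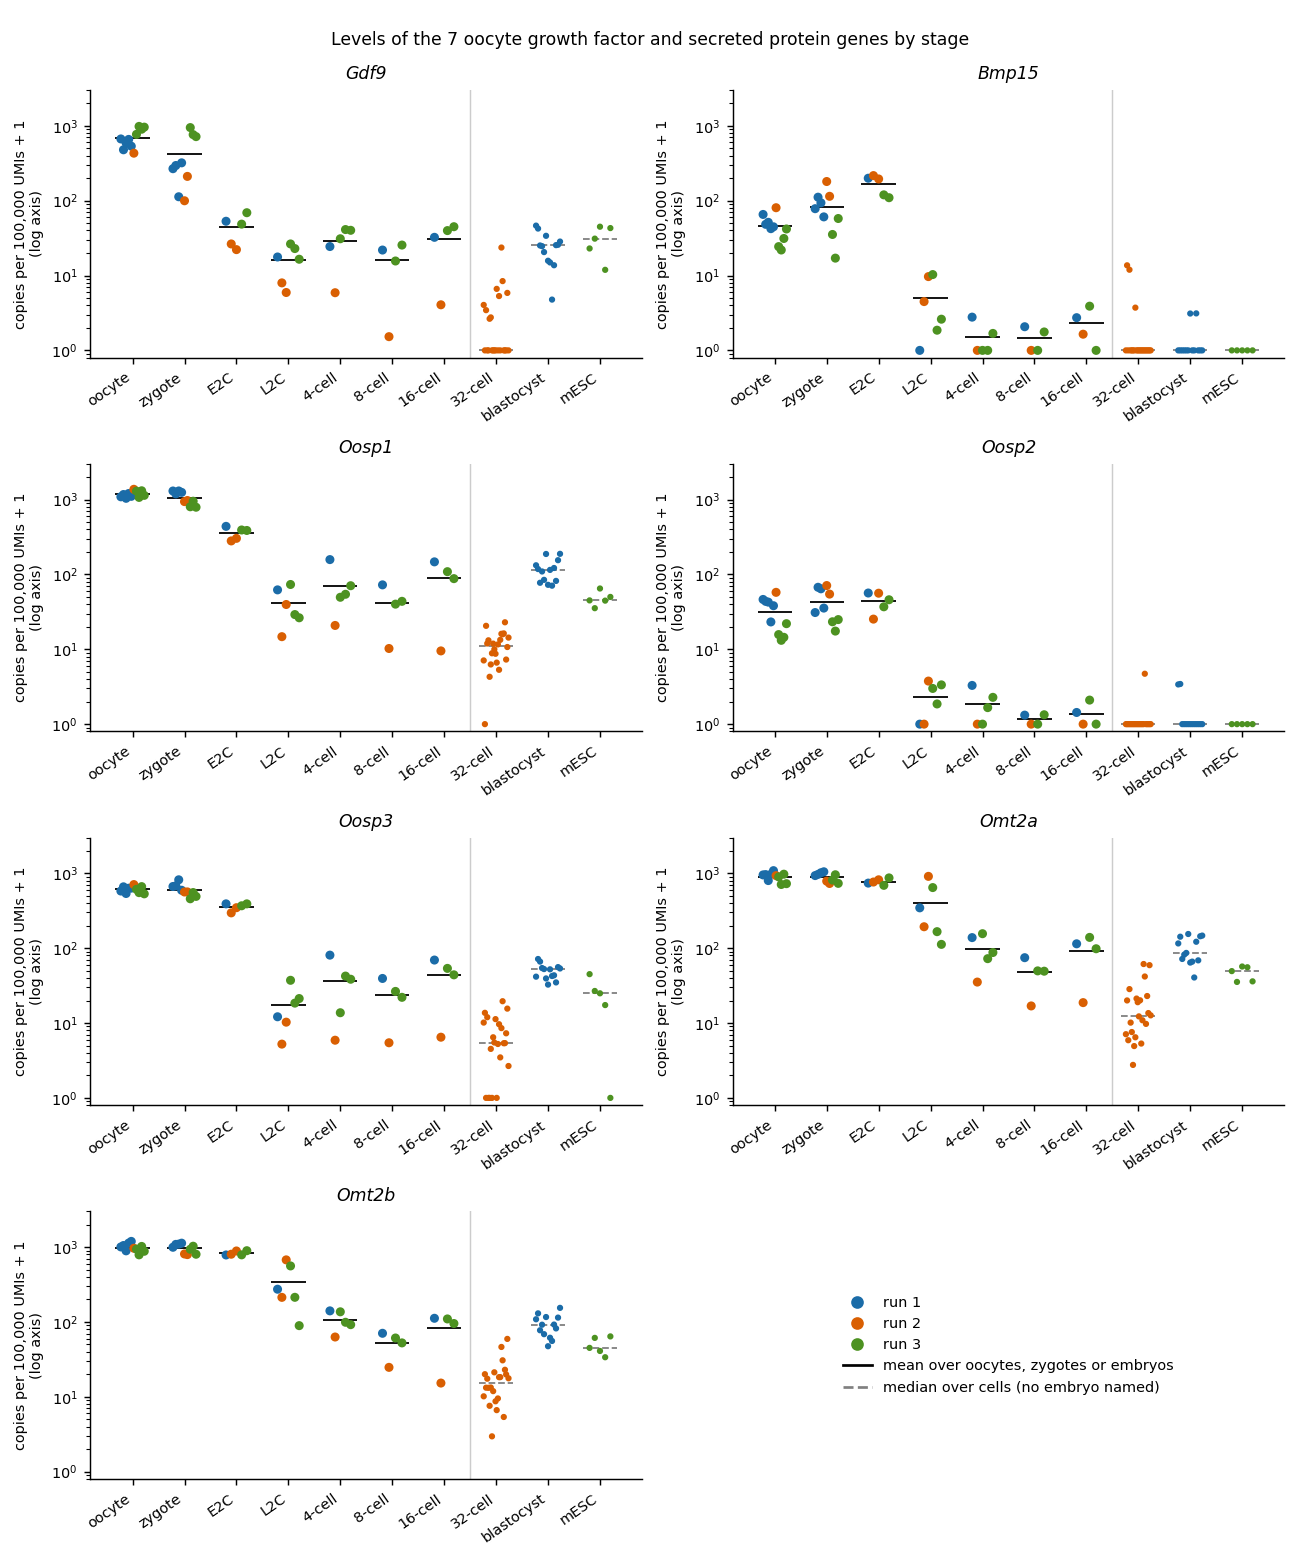
Level of each of the 7 genes by stage, in copies per 100,000 UMIs plus 1 on a log axis; each point is an embryo, or a cell to the right of the grey line, coloured by sequencing run, with solid bars for means over embryos and dashed bars for medians over cells. The mean of each gene is lower in L2C embryos than in oocytes, while Bmp15 is highest in E2C embryos, at 109 to 215.

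Gdf9 was the only one of the 7 genes called between oocytes and zygotes. Its level was 430 to 982 copies per 100,000 over the oocytes, with a median of 662 and a mean of 697 ± 199 (SD, n = 10). In zygotes it was 98.8 to 947, with a median of 294 and a mean of 414 ± 311 (SD, n = 9). The highest zygotes reached the level of the oocytes and the groups overlapped. Gdf9 fell by 1.18 ± 0.32 (SE) on the log2(value + 1) scale (limma across 11682 genes, adjusted p = 0.0068). Here and for every later level, a gene or isoform was called where its log2 change exceeded 1 in either direction with an unadjusted p below 0.01. Of all genes tested, 0.325% were called lower, against 1 of the 7.

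The fall of Gdf9 differed between sequencing runs. In run 1, 4 zygotes stood at 112 to 319 and 5 oocytes at 478 to 667, and in run 2 both zygotes, at 98.8 and 210, were below the 1 oocyte at 430. In run 3 the 3 zygotes, at 717 to 947, overlapped the 4 oocytes at 769 to 982. H1foo moved with it, standing at 594 to 888 copies per 100,000 in the zygotes of run 1, 331 to 529 in those of run 2 and 1686 to 1903 in those of run 3, against 1140 to 1864 in all oocytes. With the run as a block, an alternative chosen after seeing the data, the change of Gdf9 was -0.85 ± 0.20 (SE; limma, adjusted p = 0.0023), under the size limit, so that no gene of the 7 was called. The part of the run in this change was not tested beyond that fit.

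Bmp15, the partner ligand, had a higher mean in zygotes, not a lower one. Oocytes held 20.9 to 79.6 copies per 100,000, with a median of 42.5 and a mean of 44.2 ± 18.0 (SD, n = 10), and zygotes 16.1 to 179, with a median of 77.2 and a mean of 82.2 ± 48.9 (SD, n = 9). The groups overlapped, and the difference of 0.82 ± 0.25 (SE) on the log2 scale had an adjusted p of 0.0215 by limma but was under the size limit. In the 5 E2C embryos Bmp15 stood at 199, 215, 194, 119 and 109 copies per 100,000. Bmp15 rose by 1.11 ± 0.35 (SE) from zygotes to E2C embryos (limma, adjusted p = 0.0220), although the ranges overlapped, since the highest zygote reached 179. It was the only one of the 7 called higher at this step, where 4.52% of all genes were. Its rise was close to the size limit, and the call was kept in 23 alternative settings and lost in 4. Many of these settings left out an embryo of a later stage, which is not in this comparison, and none left out a zygote.

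Gdf9 and Oosp1 were called lower from zygotes to E2C embryos, 2 of 7 against 2.75% of all genes. The E2C embryos held Gdf9 at 52.1, 25.4, 21.2, 47.6 and 68.1 copies per 100,000, all below the lowest zygote. The fall was 2.91 ± 0.44 (SE) on the log2 scale (limma, adjusted p = 1.5e-06). Oosp1 stood at 1040 to 1371 in oocytes, with a median of 1153, and at 790 to 1303 in zygotes, with a median of 971. E2C embryos held 438, 279, 303, 392 and 386 copies of Oosp1, again all below the lowest zygote, and Oosp1 fell by 1.58 ± 0.31 (SE; limma, adjusted p = 0.000197).

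The 2 ligands thus crossed over. The linear ratio of Gdf9 to Bmp15 was 5.41 to 46.9 in oocytes, with a median of 14.1, and 0.551 to 47.4 in zygotes, with a median of 3.45. In the 5 E2C embryos it was 0.109 to 0.627, with a median of 0.262, so that Bmp15 was the more abundant of the pair in each of them. The mean log2 ratio changed by -1.80 ± 0.76 (SE) from oocytes to zygotes (exact permutation test, two-sided, adjusted p = 0.0483 over 15 tests of 5 pairs at 3 steps) and by -4.20 ± 0.85 from zygotes to E2C embryos (exact permutation test, adjusted p = 0.00999). Within runs 1, 2 and 3 the mean log2 ratio was 3.55, 2.42 and 4.96 in oocytes, 1.46, 0.01 and 4.62 in zygotes and -1.91, -3.08 and -0.98 in E2C embryos. Both steps went down within each run, and the step to zygotes was smallest in run 3.

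**Figure D2:**
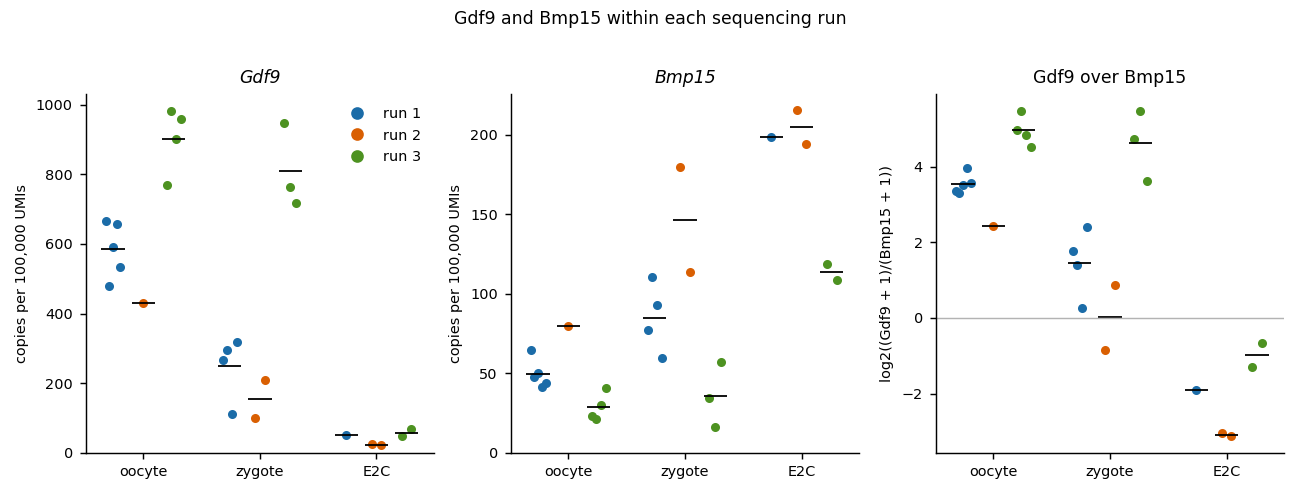
Gdf9 and Bmp15, in copies per 100,000 UMIs, and the log2 ratio of Gdf9 + 1 to Bmp15 + 1, for each oocyte, zygote and E2C embryo, split by sequencing run; bars are means. The zygotes of run 3 hold 717 to 947 copies of Gdf9, close to the oocytes of that run, while every E2C embryo of every run has a ratio below 0.

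Oosp3 and Oosp2 were held for longer than Oosp1. Oosp3 stood at 532 to 707 copies per 100,000 in oocytes, with a median of 621, and at 456 to 819 in zygotes, with a median of 564. The E2C embryos held 390, 295, 347, 368 and 390 copies of Oosp3, below every zygote, but the difference of -0.75 ± 0.31 (SE) on the log2 scale was not called (limma, adjusted p = 0.0978). Oosp2, the least abundant of the 7 in oocytes, stood at 12.2 to 56.7 in oocytes, with a median of 29.7, at 16.5 to 70.1 in zygotes, with a median of 34.5, and at 55.5, 24.3, 55.1, 36.0 and 44.9 in E2C embryos. The 3 ranges of Oosp2 overlapped.

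The neighbours Oosp1 and Oosp3 therefore changed unequally. The linear ratio of Oosp1 to Oosp3 had a median of 1.94 in oocytes, 1.72 in zygotes and 0.989 in E2C embryos. Its log2 form changed by -0.82 ± 0.08 (SE) from zygotes to E2C embryos (exact permutation test, adjusted p = 0.0075) and turned back by 1.30 ± 0.33 from E2C to L2C embryos (exact permutation test, adjusted p = 0.0162), to a median ratio of 2.62. In L2C embryos Oosp3 had 2 to 38 UMIs per embryo, and 0 of 6 embryos were above the range of the mESC. Against Oosp2, Oosp1 changed by -1.68 ± 0.29 from zygotes to E2C embryos (exact permutation test, adjusted p = 0.0075). Oosp2 against Oosp3 changed by 0.86 ± 0.27 at the same step (exact permutation test, adjusted p = 0.0386), and this passed 0.05 no longer when E2C embryo 1, 3 or 5 was left out (adjusted p = 0.079, 0.084 and 0.052).

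Omt2a and Omt2b were nearly level through the first 3 stages. Omt2a stood at 709 to 1086 copies per 100,000 in oocytes, with a median of 941, at 731 to 1048 in zygotes, with a median of 933, and at 740, 764, 819, 691 and 868 in E2C embryos. Omt2b stood at 787 to 1191, with a median of 984, at 793 to 1127, with a median of 994, and at 784, 802, 886, 787 and 894. The largest of their 4 differences up to E2C was -0.22 on the log2 scale, and none was called. Omt2a and Omt2b together went from 42.4% of the UMIs of the 7 genes in oocytes to 62.4% in E2C and 90.9% in L2C embryos.

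From E2C to L2C embryos 6 of the 7 genes were called lower, at a step where 22.8% of all genes were. In L2C embryos Bmp15 stood at 0 to 9.30 copies per 100,000, with a median of 2.55, and Oosp2 at 0 to 2.76, with a median of 1.43. Oosp3 stood at 4.23 to 36.2, with a median of 14.3, and Oosp1 at 13.7 to 72.4, with a median of 33.4. None of these 4 ranges overlapped that of E2C embryos, and the share of all genes with such a separation was not computed. Bmp15 fell by 5.31 ± 0.48 (SE), Oosp3 by 4.70 ± 0.43, Oosp2 by 4.29 ± 0.46 and Oosp1 by 3.54 ± 0.43 on the log2 scale (limma, adjusted p = 2.0e-14, 3.8e-14, 4.7e-12 and 2.5e-10). The median change was -3.54 over the 7 genes and 0.03 over all genes tested.

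The Omt2 pair was first called lower at this step too. L2C embryos held Omt2a at 111 to 910 copies per 100,000, with a median of 269, and Omt2b at 88.3 to 674, with a median of 242. The highest L2C embryo was above all E2C embryos for Omt2a and below all of them for Omt2b. Omt2a fell by 1.47 ± 0.37 (SE) and Omt2b by 1.67 ± 0.35 (limma, adjusted p = 0.00063 and 4.2e-05). The L2C embryos differed from each other 8.17-fold in Omt2a and 7.64-fold in Omt2b, while the 2 cells of an embryo differed by a median of 1.20-fold and 1.14-fold in the 5 embryos with both cells sequenced. The spread did not follow the run: Omt2a stood at 192 and 910 in the 2 embryos of run 2 and at 111 to 644.5 in the 3 of run 3.

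Gdf9 was the 1 gene not called at this step. L2C embryos held 4.93 to 25.4 copies per 100,000, with a median of 16.1, and 2 of them were above the lowest E2C embryo. The difference was -1.58 ± 0.60 (SE; limma, unadjusted p = 0.0105, adjusted p = 0.0201). With the run as a block the difference was -1.69 (limma, adjusted p = 0.00025) and all 7 genes were called. The log2 ratio of Gdf9 to Bmp15 turned back up by 3.99 ± 0.89 (SE; exact permutation test, adjusted p = 0.0260), with Bmp15 near 0 in L2C embryos.

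No difference between Omt2a and Omt2b in their change was found at these steps. Their linear ratio was 0.828 to 0.966 in oocytes, with a median of 0.914, and the medians were 0.928 in zygotes, 0.944 in E2C and 1.21 in L2C embryos. The log2 ratio changed by 0.01, 0.02 and 0.23 over the 3 steps (exact permutation tests, adjusted p = 0.62, 0.60 and 0.16).

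After the L2C stage levels were low and differed between the embryos of different runs. From L2C to 4-cell embryos Omt2a fell by 1.59 (limma, adjusted p = 0.0213) to 138, 34.3, 155, 71.5 and 86.5 copies per 100,000, and Omt2b fell by 1.31 (limma, adjusted p = 0.0487) to 140, 61.9, 136, 98.0 and 91.0. Bmp15, at 0 to 1.78 in 4-cell embryos, was also called lower, at -1.54 (limma, adjusted p = 0.11), so that 3 of 7 were lower against 4.28% of all genes. Oosp3, at 4.90 to 79.8, was called higher at 1.34 (limma, adjusted p = 0.12), 1 of 7 against 2.41% of all genes. All these ranges overlapped those of L2C embryos, and with the run as a block the calls were Omt2a and Omt2b alone, at -1.73 and -1.45. Leaving out 4-cell embryo 4 left 2 calls and leaving out 4-cell embryo 5 left 1.

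From 4-cell to 8-cell embryos the same 2 genes were called lower, 2 of 7 against 10.5% of all genes. Omt2a stood at 73.7, 15.9, 48.8 and 48.3 copies per 100,000 and Omt2b at 69.5, 23.7, 60.0 and 51.5 in 8-cell embryos. The changes were -1.11 and -1.12 (limma, adjusted p = 0.0486 and 0.0304), and the ranges overlapped. Without 4-cell embryo 1 or without 8-cell embryo 2 neither gene was called, and without 4-cell embryo 3 or 5 only 1 was. From 8-cell to 16-cell embryos 0 of the 7 were called by limma, edgeR or DESeq2, against 3.36% of all genes called by limma. With the run as a block Gdf9 was called higher, at 1.07 (limma, unadjusted p = 0.0085, adjusted p = 0.203). Oosp1, Oosp3 and Omt2a differed by 1.14, 1.07 and 0.93 on the log2 scale but were not called (limma, adjusted p = 0.23, 0.28 and 0.28). Leaving out 16-cell embryo 2 gave 5 calls, and leaving out 8-cell embryo 1 or 16-cell embryo 4 gave 3. The shares of all genes called in these reduced fits are not given.

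The order of the runs was the same at each of these stages. Runs 1 and 2 gave 1 embryo each per stage, so that run and embryo cannot be told apart there. The summed level of the 7 genes was 541 copies per 100,000 in the 4-cell embryo of run 1, 126 in that of run 2 and 305 to 382 in the 3 of run 3. In 8-cell embryos it was 276, 53.9 and 188 to 189, and in 16-cell embryos 473, 49.7 and 365 to 451. The oocyte gene H1foo followed, at 151, 20.1 and 82.6 to 104 copies in 4-cell, 106, 6.01 and 49.1 to 61.0 in 8-cell and 184, 2.96 and 97.7 to 134 in 16-cell embryos.

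Cells without an embryo number came from 1 run per stage. In the 22 cells of 32-cell embryos, all of run 2, the sum of the 7 genes was 13.7 to 151 copies per 100,000, with a median of 42.3. In the 13 blastocyst cells, all of run 1, it was 209 to 567, with a median of 357. In the 5 mESC, all of run 3, it was 158 to 228, with a median of 189. Stage and run cannot be told apart in these cells.

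In mESC, a cultured male line, Gdf9 stood at 10.9 to 43.9 copies per 100,000, Oosp1 at 34.4 to 63.9, Oosp3 at 0 to 44.0, Omt2a at 34.4 to 55.9 and Omt2b at 32.8 to 63.1. Bmp15 and Oosp2, the 2 genes that were rare in oocytes, had 0 of 103590 UMIs there, which allows up to 2.90 copies per 100,000 and covers counting error only. Of the 202 UMIs of the 7 genes in mESC, 15.3% were of Gdf9 (Wilson 95% interval 11.0 to 21.0), 24.3% of Oosp1 (18.9 to 30.6), 12.4% of Oosp3 (8.53 to 17.6) and 23.8% of Omt2a (18.4 to 30.1). In oocytes these shares were 15.5%, 26.6%, 13.8% and 20.3%, each within the interval of the mESC. The source of these UMIs in mESC was not tested.

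The low levels were also set against the range of the mESC. In L2C embryos Omt2a and Omt2b were above the range of the mESC in 6 of 6 embryos, Oosp1 in 1 and Gdf9 and Oosp3 in 0. Bmp15 and Oosp2, for which the mESC range was 0 so that any UMI lay above it, were above it in 5 and 4 of the 6. In 4-cell embryos Omt2a and Omt2b were above it in 4 of 5 each, Oosp2 in 3, Oosp1 and Bmp15 in 2 each, Oosp3 in 1 and Gdf9 in 0.

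Most isoform UMIs of the 7 genes matched annotated transcripts, although most isoforms did not. Of 160 isoforms, 48 were classed as full matches of an annotated transcript, 1 of them, of Omt2b, with a single exon. Of the others, 24 had a part of an annotated intron chain, 14 a new combination of known splice sites and 74 at least 1 new splice site. The 48 held 90.1% to 97.1% of each gene's UMIs in oocytes, so the new chains were many and rare. The isoform table held 95.3% to 100.3% of the UMIs that the gene table gave for Oosp1, Oosp3, Omt2a and Omt2b in oocytes, 82.4% of those of Oosp2, 62.6% of those of Gdf9 and 13.7% of those of Bmp15. Shares of isoforms of Gdf9, and above all of Bmp15, therefore rest on part of their transcripts.

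Gdf9 had 1 dominant isoform. PB.11184.66, with 2 exons and 2319 bases and the introns of Gdf9-201, lay at chr11:53432785-53437916, its 5′ end at -514 relative to the annotated transcript start. It held 95.2% ± 1.44 (SD, n = 10) of the gene's isoform UMIs in oocytes, 90.8% in zygotes and 71.5% ± 10.5 (SD, n = 5) in E2C embryos. PB.11184.129, whose intron is not annotated, went from 1.99% to 4.75% and 14.2%. The isoform shares of Gdf9 changed from zygotes to E2C embryos (limma on arcsine square root shares, gene-level adjusted p = 0.0028), 1 of the 7 genes at a step where 5.24% of genes with a test were called. By run the share of PB.11184.66 was 84.7% to 92.6%, 78.0% to 92.2% and 94.6% to 95.9% in zygotes and 62.7%, 58.3% to 77.8% and 75.6% to 83.0% in E2C embryos. No call was made without E2C embryo 1 or 3. From L2C to 4-cell embryos the shares of Gdf9 were called again (gene-level adjusted p = 0.0049, against 1.46% of genes), with PB.11184.66 at 80.2% in the 3 L2C embryos with enough UMIs, all of run 3, and 98.2% in the 4-cell embryos, 1 of run 1 and 3 of run 3. This call was lost with 1 or more or 10 or more UMIs and on the untransformed scale.

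Isoforms were also tested by level. Of 29409 isoforms tested, 94 were of the 7 genes. PB.11184.66 was the only 1 of these 94 called lower from oocytes to zygotes, by 1.28 (limma, adjusted p = 0.0445), where 0.320% of all isoforms were. The call was lost with the run block, without weights, by edgeR and by DESeq2. From zygotes to E2C embryos 6 were called lower, against 2.94% of all isoforms, and these were 3 of Gdf9 and 3 of Oosp1. At this step 4 were called higher, all of Bmp15 and led by PB.78794.11 at 2.52, against 2.23% of all isoforms. Bmp15 as a gene rose by 1.11 at this step. Its isoform UMIs were 8.76% of its UMIs in zygotes and 15.5% in E2C embryos. The part of this difference in the 4 calls was not tested. From E2C to L2C embryos 46 of the 94 were lower and none higher, against 13.1% lower of all isoforms: 13 of 18 tested for Oosp1, 9 of 17 for Oosp3, 9 of 17 for Omt2b, 6 of 17 for Omt2a, 4 of 7 for Oosp2, 4 of 6 for Bmp15 and 1 of 12 for Gdf9.

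After the L2C stage few isoforms were called. From L2C to 4-cell embryos 4 were lower, all of Omt2a and Omt2b, against 1.68% of all isoforms, and 1 was higher, Oosp3 isoform PB.38236.29 at 1.48, against 2.61%. From 4-cell to 8-cell embryos 3 were lower, against 4.30% of all isoforms, and from 8-cell to 16-cell embryos 5 were higher, against 1.05%. The last count was 12 without 16-cell embryo 2 and 1 without 8-cell embryo 2 or 16-cell embryo 1.

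The 3 Oosp genes differed in how many isoforms they used. Oosp1 had PB.38237.8, with 5 exons and 1425 bases, at 50.1% of UMIs in oocytes, 53.4% in zygotes and 43.0% in E2C embryos, and PB.38237.143, with the same introns but an earlier end, at 30.8%, 27.8% and 22.6%. Both had a poly(A) signal before their end, as the sequences above show, at 51 and 34 bases from it. Oosp2 had PB.38234.9 at 84.8%, 82.4% and 80.6%. Oosp3 split its UMIs between PB.38236.13, which lacks 1 exon of the others, at 32.2%, 33.1% and 44.6%, and the 6-exon isoforms PB.38236.14, at 29.8%, 27.0% and 16.0%, and PB.38236.29, at 28.1%, 29.6% and 22.7%. The means of PB.38236.14 also depend on how many embryos each run gave: it went from 42.8% to 40.3% and 32.6% in run 1, with 5 oocytes, 4 zygotes and 1 E2C embryo, and from 17.4% to 16.3% and 11.8% in run 3, with 4, 3 and 2. The shares of Oosp1 and Oosp3 were called as changed from E2C to L2C embryos (gene-level adjusted p = 0.0045 and 0.0022), where 38.6% of genes with a test were. Bmp15 and Oosp2 had no test at this step, and 2 calls among the other members are close to the background. Without E2C embryo 2 or 3 only 1 of the 2 was called.

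Omt2a and Omt2b each kept 1 main isoform from oocyte to L2C embryo. Omt2a isoform PB.76996.5, with 3 exons and 1345 bases, held 93.2%, 92.5%, 91.8% and 93.4% of UMIs in the 4 stages. Omt2b isoform PB.76995.28 held 71.1%, 71.4%, 72.2% and 74.7%, and PB.76995.22, with the same introns, 22.8%, 22.5%, 19.9% and 17.0%. Neither gene was called for a change of shares at any step.

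For Oosp3 and Omt2b, the isoform with a longer end was more frequent in run 1 than the other runs in oocytes. Oosp3 isoform PB.38236.14 ends 156 bases past the annotated end and PB.38236.29 only 23. The longer one held 39.5% to 46.1% of the UMIs of Oosp3 in the oocytes of run 1, 14.5% in that of run 2 and 15.6% to 19.8% in those of run 3. Zygotes gave 37.7% to 42.2%, 14.6% to 18.7% and 13.6% to 18.1%, and E2C embryos 32.6%, 11.6% to 12.2% and 11.5% to 12.1%. Likewise Omt2b isoform PB.76995.22, which ends 160 bases past the annotated end against 36 for PB.76995.28, held 25.0% to 26.1% in the oocytes of run 1 and 19.2% to 21.1% in those of runs 2 and 3. For Oosp1 this was not seen: the longer-ended PB.38237.8 had a mean share of 49.6% in the oocytes of run 1, 43.6% in that of run 2 and 52.3% in those of run 3. Within a stage the shares of PB.38236.14 and PB.76995.22 separated run 1 from the other runs without overlap in oocytes and zygotes, which was not tested.

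**Figure D3:**
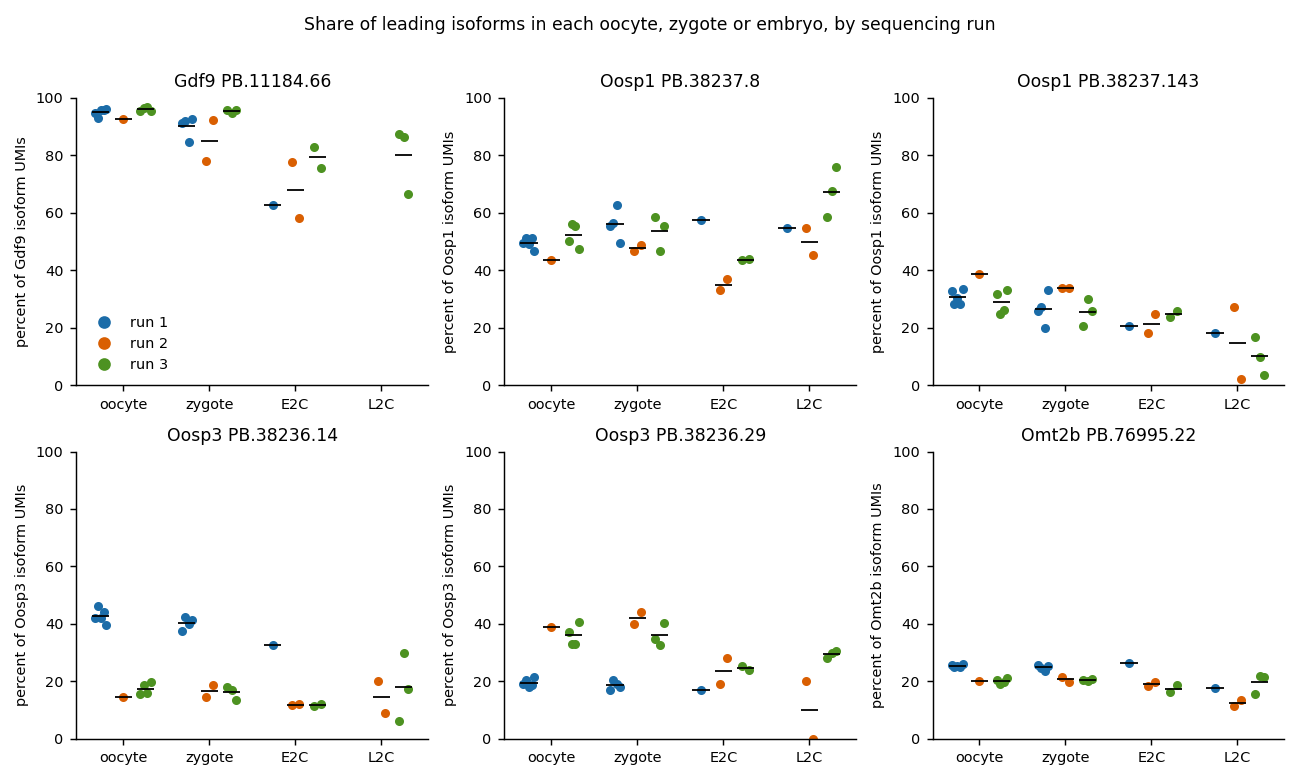
Share of a gene's isoform UMIs held by named isoforms of Gdf9, Oosp1, Oosp3 and Omt2b, in percent per embryo from oocyte to L2C, coloured by sequencing run. PB.11184.66 of Gdf9 drops from 95.2% in oocytes to 71.5% in E2C embryos, while PB.38236.14 of Oosp3 lies at 39.5% to 46.1% in the oocytes of run 1 and below 20% in the oocytes of the other runs.

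Some Bmp15 isoforms ended before the annotated stop codon. There were 9 such isoforms among the 160, of which 7 were of Bmp15 and 1 each of Gdf9 and Oosp1. They held 0% of the isoform UMIs of Bmp15 in 7 of the 8 oocytes with enough UMIs and 41.7%, 5 of 12 UMIs, in the oocyte of run 2. The mean was 5.21% ± 14.7 in 8 oocytes and 34.0% ± 20.9 in 8 zygotes, each with its SD (exact permutation test, two-sided, adjusted p = 0.0448 over 6 tests). The test of all isoform shares of Bmp15 between these stages did not reach its limit of 0.01 (limma, gene-level adjusted p = 0.0305), which 0.299% of genes passed. Zygotes had 40% to 57.1% in run 1, 18.75% and 39.5% in run 2 and 5.26% and 7.14% in run 3, and E2C embryos had a mean of 16.3% ± 9.70 (SD, n = 5; exact permutation test against zygotes, adjusted p = 0.21). Since the isoform table held 13.7% of the Bmp15 UMIs of oocytes and 8.76% of those of zygotes, these shares rest on 127 and 181 UMIs in all. The mean shares were at most 2.45% at any of the 3 stages for Gdf9 and 0.0451% for Oosp1, and 0 for the other 4 genes.

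In run 4, no difference in the 7 genes was called between 4 intact oocytes and 6 pieces of 1/2 or 6 of 1/4 of an oocyte. Pieces may come from the same oocyte, which the column names do not show, so that p-values over pieces can be too small and n counts pieces. Values are UMIs per 100,000 isoform UMIs of a column, each with 129744 to 289774 UMIs. Of 2767 genes tested, 0.506% were called for 1/2 and 0.542% for 1/4 oocytes against intact ones, and 0 of the 7 in either (edgeR quasi-likelihood test, and likewise 0 by DESeq2). At an unadjusted p under 0.05, 0 of the 7 were counted in 1/2 oocytes and 2, Bmp15 and Oosp1, in 1/4 oocytes. The share of all genes at that looser limit is not given. Bmp15 stood at 50.5, 47.1, 77.6 and 54.4 in intact oocytes and at 19.9 to 51.6, with a mean of 38.8 ± 12.8 (SD, n = 6), in 1/4 oocytes, a difference of -0.54 (edgeR, unadjusted p = 0.0088, adjusted p = 0.39). Oosp1 stood at 542 ± 59.9 (SD, n = 4) and 659 ± 69.6 (SD, n = 6), a difference of 0.31 (edgeR, unadjusted p = 0.0098, adjusted p = 0.39). Gdf9 stood at 717 ± 112 (SD, n = 4) in intact, 697 ± 79.3 (SD, n = 6) in 1/2 and 688 ± 92.5 (SD, n = 6) in 1/4 oocytes. Omt2a and Omt2b differed by less than the spread between columns, with means of 475, 459 and 469 and of 569, 549 and 557. By median, Gdf9 led the 7 genes in the intact oocytes, at 727 against 570 for Omt2b, 561 for Oosp1 and 469 for Omt2a. By isoform UMIs of runs 1 to 3, the oocyte medians were 601 for Gdf9, 1455 for Omt2b, 1692 for Oosp1 and 1363 for Omt2a. Bmp15 had medians of 52.5 in intact oocytes of run 4 and 6.79 in oocytes of runs 1 to 3. In the latter its isoform UMIs were 13.7% of the UMIs of the gene. By all UMIs of the gene, summed over those oocytes, Bmp15 stood at 45.7 copies per 100,000. The cause of these differences between runs was not tested.

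**Figure D4:**
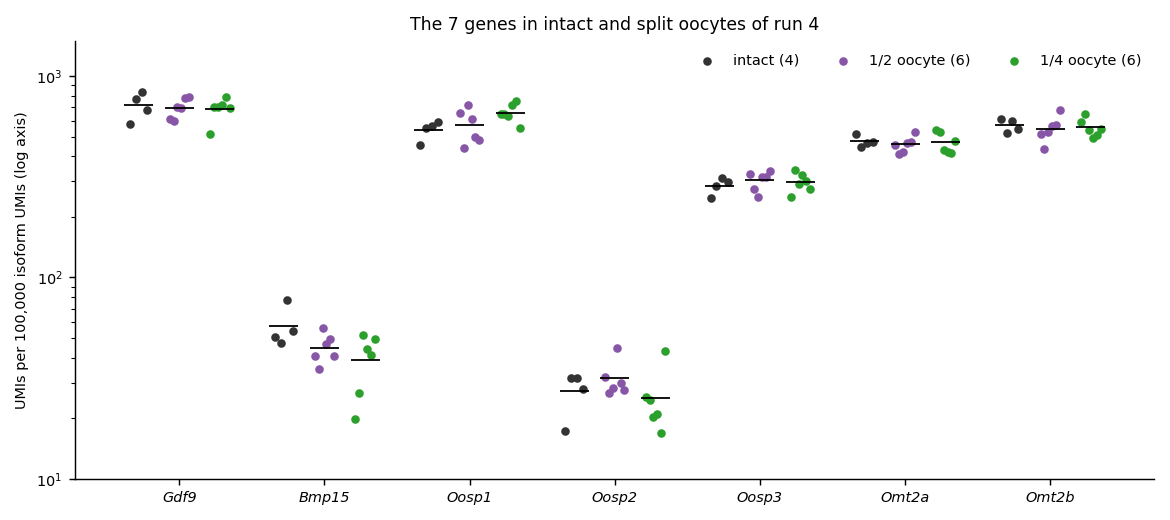
UMIs of each of the 7 genes per 100,000 isoform UMIs in the 4 intact oocytes and the 6 1/2 and 6 1/4 pieces of run 4, on a log axis, with bars for means. The 3 groups overlap for every gene, and Bmp15 has means of 57.4, 44.9 and 38.8 in intact, 1/2 and 1/4 oocytes.

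Isoforms of run 4 were not shared out as in runs 1 to 3. In 6 of the 7 genes the 2 leading isoforms of run 4 had the same introns and nearly equal counts: PB.11184.66 and PB.11184.132 of Gdf9 had 5856 and 5690 UMIs, and the first held 47.9% to 54.3% of both in each of the 16 columns. In the oocytes of runs 1 to 3 these had 8339 and 7 UMIs. For Oosp1 the pair PB.38237.8 and PB.38237.2 had 6114 and 6057 UMIs in run 4 and 11489 and 10 in oocytes of runs 1 to 3, and for Omt2a the pair PB.76996.5 and PB.76996.2 had 4744 and 4565 against 16208 and 9. The tables were made separately, so isoform shares were not compared between them, and only sums over isoforms were used from run 4.

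The genes through which the 2 ligands act and are made were measured in the same cells. Of 17 receptors and SMADs, 13 passed the filter on low values. From oocytes to zygotes and from zygotes to E2C embryos 0 of these were called by limma, and 1, Acvr1b, was counted at an unadjusted p under 0.05 at either step. Shares of all genes at that looser limit are not given. From E2C to L2C embryos 3 rose and 3 fell, among 25.6% of all genes called higher and 22.8% lower. Bmpr1b, a type 1 receptor, was at 16.8 ± 3.22 copies per 100,000 in oocytes (SD, n = 10), 11.5 ± 0.606 in E2C embryos (SD, n = 5) and 0.910 ± 1.10 in L2C embryos (SD, n = 6), and fell by 2.87 on the log2 scale (limma, adjusted p = 2.7e-09). Smad7, an inhibitor of the pathway, was at 0 in all oocytes and E2C embryos and at 3.16 to 13.3 in L2C embryos, where it was called higher (limma, adjusted p = 3.1e-11).

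Furin, a protease that cleaves precursors of such ligands, fell at the same steps as Gdf9. It was at 12.5 ± 4.02 copies per 100,000 in oocytes (SD, n = 10), 7.58 ± 7.23 in zygotes (SD, n = 9) and 1.32 ± 0.512 in E2C embryos (SD, n = 5), with falls of 1.17 and 1.33 on the log2 scale (limma, adjusted p = 0.00139 and 0.00874). It was the only 1 of the 3 convertases tested that was called at either step, where 0.325% and 2.75% of all genes were called lower. The first fall of Furin was close to the size limit of 1, and no split by run or alternative setting is given for it. Of 14 other ligands of the superfamily 4 passed the filter and 3 of them fell from E2C to L2C embryos, against 22.8% of all genes. Tgfb2 was the most abundant of these, at 14.96 ± 7.17 copies per 100,000 in oocytes (SD, n = 10), 36.1 ± 7.74 in E2C embryos (SD, n = 5) and 3.82 ± 3.95 in L2C embryos (SD, n = 6).

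Of 6 oocyte transcription factors 4 passed the filter. Lhx8, needed for early oocyte growth, went from 2.60 ± 1.17 copies per 100,000 in oocytes (SD, n = 10) to 12.6 ± 4.64 in E2C embryos (SD, n = 5) and was called higher from zygotes to E2C embryos at 1.15 (limma, adjusted p = 0.00631). Nobox, which acts on the promoters of several oocyte genes, stood at 2.42 ± 0.985 in oocytes (SD, n = 10) and 9.61 ± 3.56 in E2C embryos (SD, n = 5). From E2C to L2C embryos 2 of the 4 fell, against 22.8% of all genes, 1 rose, against 25.6%, and Sohlh2 was not called. Lhx8 and Nobox fell by 3.01 and 3.08 on the log2 scale (limma, adjusted p = 1.3e-08 and 1.4e-09), and Taf4b, which encodes a subunit of a germ-line transcription complex, rose by 2.25 (limma, adjusted p = 2.8e-07), from 2.84 ± 2.10 copies per 100,000 in E2C embryos (SD, n = 5) to 15.2 ± 3.42 in L2C embryos (SD, n = 6). Of 7 antagonists 2 passed the filter, and Plac1, the kin of the Oosp genes, was not called at any step.

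Over the 43 embryos, the members nearest to each other in pattern were Omt2a and Omt2b, with a Pearson r of 0.992 of log2(value + 1), Oosp1 and Oosp3 at 0.980 and Bmp15 and Oosp2 at 0.966, while Gdf9 and Bmp15 stood at 0.613. Among the other genes that passed the filter, the pattern of Gdf9 was most like those of H1foo (0.970) and Plat (0.969), that of Bmp15 like Gm17830 (0.972) and Pkd2l2 (0.968), and that of Oosp1 like Ccdc69 (0.974) and Bpgm (0.974). Oosp2 was most like Pkd2l2 (0.982) and AI987944 (0.977), Oosp3 like Obox1 (0.985) and E330034G19Rik (0.981), Omt2a like Tent4a (0.968) and Siah2 (0.952), and Omt2b like C87436 (0.963) and Khdc1b (0.960). These correlations describe a fall that many oocyte genes share, over embryos that share runs.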

How the data were processed

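Polyadenylated RNA of single blastomeres was amplified, barcoded and read as full-length cDNA on PacBio chips. Per the study's methods, the authors called consensus reads, assigned barcodes and UMIs, used minimap2 for alignment to mm10, gffcompare for gene names and cDNA_Cupcake to collapse reads into isoforms, took isoform classes from SQANTI3 and dropped isoforms present in too few cells. The gene and isoform tables of runs 1 to 3 were deposited as copies per 100,000 UMIs of a cell, a scaled CPM recorded here as a score; each value was a whole number of UMIs (100% within 0.1 UMI), from which the counts were recovered. The deposited table of run 4 holds UMI counts per isoform in 16 columns. The isoform file gave exon positions. No column of per-sample values was left out (0).

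Stages came from column names, which give stage, embryo and cell but no run or barcode, so barcodes shared between runs were not counted. The run of each of the 43 embryos was taken from the study's supplementary cell lists, 19 by name and 24 by a count that the lists give under both names. Cells of an embryo were averaged. Genes and isoforms that reached 1 copy per 100,000 in 4 or more embryos were fitted with limma 3.58.1 (trend, array weights; R 4.3.3) on log2(value + 1), all stages in 1 fit, with Benjamini-Hochberg values over all features. Isoform shares were fitted on the arcsine square root scale in embryos with 5 or more isoform UMIs of a gene, with gene-level p-values by Simes and a limit of 0.01. Ratios of related members and shares of isoforms ending before the stop codon were compared by exact permutation tests. Run 4 counts were summed per gene and tested with edgeR 4.0.16. Alternatives were pseudocounts of 0.5 and 5, no filter, no array weights, edgeR and DESeq2 1.42.0 on the recovered counts, an adjusted p under 0.05, embryos left out in turn and, chosen after seeing the data, the run as a block, leaving out the L2C embryo of which 1 cell was sequenced, and subtraction of the mean of the mESC. The scripts were tested on simulated data with 200 changed genes; python 3.11.15, pandas 2.3.3 and SciPy 1.17.1 were used.

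Sequences and positions came from GENCODE vM21; no genome or protein table was used here. All 7 members are named. For isoforms, up to 3 per gene with the most UMIs in oocytes and zygotes were named, with the leading one of E2C embryos and those of called shares; PB.11184.132, PB.38237.2 and PB.76996.2 were named after their values in run 4 were seen. The members and lists were chosen with earlier results of these data known.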

Additional observations from a re-analysis of the deposited data

Results flagged for a closer look

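In 3 of 70 groups of 4 to 10 samples, 1 sample lay apart from the rest by Dixon's test at the 95% level, which chance does in about 1 in 20 groups. All 3 were in the divided oocytes of run 4. Gdf9 was at 513 UMIs per 100,000 in 1/4 oocyte 1, with the next lowest at 695. Oosp2 was at 44.8 in 1/2 oocyte 4, with the next highest at 32.2, and at 43.0 in 1/4 oocyte 6, with the next highest at 25.6.

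UMIs of the 7 genes were found above the limit that a count of 0 allows in cells that entered no test. Summed over the 22 cells of 32-cell embryos, Gdf9 was at 1.57 copies per 100,000, Bmp15 at 0.655, Oosp1 at 10.1, Oosp3 at 4.72, Omt2a at 13.8 and Omt2b at 14.2, against a limit of 0.393. Over the 13 blastocyst cells, Gdf9 was at 22.8, Oosp1 at 110.5, Oosp3 at 48.7, Omt2a at 95.5 and Omt2b at 88.9, against a limit of 0.495. Over the 5 mESC, Gdf9 was at 29.9, Oosp1 at 47.3, Oosp3 at 24.1, Omt2a at 46.3 and Omt2b at 47.3, against a limit of 2.90. The 3 kinds of cell were sequenced in runs 2, 1 and 3, respectively, so that stage and run cannot be told apart.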

How the results depend on the processing

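Of 432 alternative values for single genes, 392 kept their direction and their side of the limits and 40 kept the direction but were no longer called. Many of these alternatives left out an embryo of a stage outside the step, and none left out an oocyte or zygote. The counts of called genes were 0 from oocytes to zygotes (main 1) without the low-value filter, without array weights, by edgeR, by DESeq2 and with a run block. From L2C to 4-cell embryos they were 2 (main 4) with a pseudocount of 5, without the filter, with the run block and at an adjusted p under 0.05. From 4-cell to 8-cell embryos they were 1 (main 2) with a pseudocount of 5, without the filter and without weights, 0 by edgeR and DESeq2, and 4 with the mESC mean subtracted. From 8-cell to 16-cell embryos they were 1 (main 0) with a pseudocount of 5 and with the run block, and 4 with the mESC mean subtracted. Called isoforms numbered 3 with a pseudocount of 0.5 and 0 without weights, by edgeR, by DESeq2 and with the run block from oocytes to zygotes (main 1). With a pseudocount of 5 they numbered 5 from zygotes to E2C (main 10), 30 from E2C to L2C (main 46), 3 from L2C to 4-cell (main 5), 1 from 4-cell to 8-cell (main 3) and 2 from 8-cell to 16-cell embryos (main 5). From L2C to 4-cell embryos they numbered 8 without weights, 9 by edgeR, 10 by DESeq2 and 3 at an adjusted p under 0.05, from 4-cell to 8-cell embryos 5 with the run block, and from 8-cell to 16-cell embryos 1 without the filter, without weights, by edgeR, by DESeq2 and at an adjusted p under 0.05. Genes with changed isoform shares numbered 0 from zygotes to E2C embryos with 1 or more UMIs (main 1), 0 from E2C to L2C embryos on the untransformed scale (main 2), and 0 from L2C to 4-cell embryos with 1 or more UMIs, with 10 or more and untransformed (main 1). From E2C to L2C embryos, the log2 ratio of Oosp1 to Oosp2 changed by 1.55 with a pseudocount of 0.5 (exact permutation test, adjusted p = 0.0337), -0.26 with 5 and 1.09 with summed UMIs (adjusted p = 0.0433 by the same exact test), against 1.06. That of Oosp2 to Oosp3 changed by -0.21 with 0.5 and 1.335 with 5 (exact permutation test, adjusted p = 0.0216), against 0.23, since Oosp2 was near 0 in L2C embryos. For the other changes the cause was not tested.

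Embryos of the E2C, 4-cell, 8-cell and 16-cell stages were left out 1 at a time. Called genes numbered 1 to 1, 2 to 3, 6 to 7, 1 to 5, 0 to 2 and 0 to 5 in step order. No oocyte or zygote was left out, so the range from oocytes to zygotes does not test single oocytes or zygotes. Isoforms numbered 10 to 13 from zygotes to E2C, 43 to 48 from E2C to L2C and 3 to 7 from L2C to 4-cell embryos. They numbered 1 to 5 from 4-cell to 8-cell and 1 to 12 from 8-cell to 16-cell embryos. For shares and ratios only E2C embryos were left out. Genes with changed shares numbered 0 to 1, 1 to 2 and 1 to 1 from zygotes to E2C, L2C and 4-cell embryos. The change of Oosp2 to Oosp3 from zygotes to E2C embryos was 0.75 to 0.98, and the share of Oosp1 UMIs ending before the stop codon changed by -0.0305 to 0.0259 percentage points. No paired analysis was possible because embryo numbers of different stages name different embryos. Values under about 5 copies per 100,000 rest on few UMIs in cells after the 2-cell stage.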

Other observations

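Several genes of the ligand pathway with low levels were called. Fstl3, which encodes an extracellular antagonist of activins, was at 0 in all 6 L2C embryos, at 0 to 3.36 in 4-cell embryos and at 2.63 to 14.1 in 8-cell embryos, and rose by 2.59 from 4-cell to 8-cell embryos (limma, adjusted p = 7.0e-06). Smad2 and Smad3, which carry the signal of GDF9 in its target cells, fell by 1.46 and 1.64 from E2C to L2C embryos (limma, adjusted p = 0.000184 and 0.000145), while the receptor genes Bmpr1a and Tgfbr1 rose by 1.51 and 1.23 (limma, adjusted p = 0.00606 and 0.0186). Of the 13 receptors and SMADs tested, 3 rose and 3 fell at that step, close to the 25.6% and 22.8% of all genes that did.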
